A study of Oryza sativa with 4 samples.

Results

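Panicles of rice plants in which RFL was targeted by a double-stranded RNA interference construct (dsRNAiRFL, called dsRNAi here) were set against wild type panicles on 2 of the 4 arrays of the series. These arrays were taken by their labels alone. Both RNAs were hybridized together on each array, the dsRNAi RNA labelled with Cy5 on array 1 and with Cy3 on array 2. The other 2 arrays set panicles expressing RFL antisense RNA against wild type, and entered the shared estimate of the spread and a test of the difference between constructs. The labels give TP309, a japonica cultivar, and the branching stage of the panicle for the wild type RNA, and describe the dsRNAi RNA only as coming from transgenic panicles with RFL knocked down. The promoter of the construct, the number of transgenic lines and the number of plants per RNA pool are not given in the sources used here.

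RFL is the rice counterpart of LEAFY, the plant transcription factor that in Arabidopsis gives young meristems their floral identity and switches on floral organ genes. In rice it is known for its part in flowering time and in the branching of the panicle and the plant. Double-stranded RNA made from a transgene is cut into small RNAs that guide the breakdown of the matching transcript. A young panicle holds branch and spikelet meristems, in which KNOX homeobox genes keep cells undifferentiated and MADS-box genes specify the floral organs.

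Each array held 21495 probes that are not controls, each identified by a rice cDNA accession and by a description, which often names the nearest homologue in another species. No probe or description names RFL (0 of 21495), so the lowering of the targeted gene itself was not checked here. The dsRNAi channel was well above background at 18191 probes on array 1 and 16155 on array 2, and the wild type channel at 14722 and 16127. After a filter on dim probes 17997 were tested. Values are log2 ratios of dsRNAi over wild type, as the mean of n = 2 arrays, with p from limma after Benjamini-Hochberg adjustment over all tested probes. The value after ± is limma's moderated SE, which draws on the spread within both pairs of arrays and across probes. Where 2 values follow a gene they are those of arrays 1 and 2, in this order. The series' design speaks of independent pools of RNA, which the sample labels do not settle, so the SE and p measure the spread between arrays, which may be technical. Results given without array 1 or 2 rest on 1 dsRNAi array. Their p uses the spread between the antisense arrays and measures none between the dsRNAi arrays. Across all tested probes the log ratios of the 2 arrays correlated at r = 0.832 (a description across genes, which are not independent replicates), as the plot of one array against the other shows.

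At an adjusted p under 0.05, 2017 probes were higher in dsRNAi panicles (11.2%) and 2622 lower (14.6%), in all 4639 or 25.8% of those tested. Below, rose and fell are used for probes that passed. Large changes were more often falls. At least 2-fold higher were 366 probes (2.03%) and at least 2-fold lower 863 (4.8%), and 38 rose and 193 fell by at least 4-fold. The median of all tested probes was 0.01. These counts rest on the correction of each array for dye effects that vary with brightness. Before it the median log ratio of dsRNAi over wild type was 1.84 on array 1 and -0.08 on array 2. With each array only centred on its median, 186 probes passed, 59 higher and 127 lower in dsRNAi panicles, so that 31.7% of calls were rises, against 43.5% with the correction by brightness. Of the 127 called genes named below, 51 kept their call with median centring.

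The wild type RNA of the dsRNAi arrays was hybridized apart from the wild type RNA of the antisense arrays, and the wild type channels of both sets stood apart at many probes. This bears on every difference between the constructs. A changed log ratio in whole panicles can come from fewer cells of a type or from less RNA per cell, and these cannot be told apart here.

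The largest changes were ranked among genes with a described product that were well above background and not saturated in both channels on both arrays. The largest falls were in enzymes of fermentation, of hormone turnover and of nitrogen compounds. Pyruvate decarboxylase 1 (AK100678), which diverts pyruvate into ethanol fermentation, had log2 ratios of -6.28 and -5.95. Its log2 channel signals were 6.69 and 7.17 in dsRNAi panicles and 12.97 and 13.12 in wild type, so both dsRNAi values lay far below both wild type values. The mean was -6.11 ± 0.19, a 69.2-fold lower level in dsRNAi panicles (adjusted p = 8.82e-06). A cDNA described by a salicylic acid carboxyl methyltransferase of Atropa belladonna (AK070415), the enzyme that makes volatile methyl salicylate, gave -5.82 and -5.91 and a mean of -5.87 ± 0.11 (58.3-fold lower, adjusted p = 1.17e-06). An Arabidopsis-like 1-aminocyclopropane-1-carboxylate oxidase (AK102472), of the last step of ethylene synthesis, gave -4.79 and -4.44 (24.5-fold lower). All 3 were falls of similar size on both arrays.

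A cDNA described by a barley jasmonate-induced protein (AK066682) fell 20.2-fold, with -4.61 and -4.07 on the arrays. Arginine decarboxylase (AK058573, described from oat), which starts one route of polyamine synthesis, fell 17.9-fold with -4.32 and -4.00, and glutamate decarboxylase OsGAD2 (AK071556), which makes gamma-aminobutyrate, fell 14.4-fold with -3.60 and -4.10. The remaining genes of the 10 largest falls ranged from -3.61 to -4.33. They were described as an Arabidopsis peptide transporter (AK072119), the wild oat DNA-binding protein ABF2 (AK106282), a maize fatty acid elongase (AK067907) and an I-box binding factor of Arabidopsis (AK107134). For each of the 10 both dsRNAi channel values were lower than both wild type values.

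The largest rises in such genes were led by 2 cDNAs of the same defence protein. (Over all probes the highest value was 6.62, in a cDNA without a described product.) PBZ1, a pathogenesis-related protein of rice named after probenazole, a compound that primes plants against disease, was measured by AK071613 with log2 ratios of 3.36 and 3.46 and by AK099157 with 3.48 and 3.33. In log2 signal AK099157 stood at 11.69 and 11.47 in dsRNAi panicles and at 8.21 and 8.14 in wild type. AK071613 rose 10.6-fold (mean 3.41 ± 0.12, adjusted p = 1.01e-05) and AK099157 also 10.6-fold (mean 3.41 ± 0.11, adjusted p = 1.01e-05). Isocitrate lyase (AK063353), an entry enzyme of the glyoxylate cycle by which plants turn fatty acids into sugar, rose 9.69-fold with 3.38 and 3.18 (mean 3.28 ± 0.22, adjusted p = 6.51e-05). The metallothionein OsMT-1 (AK103162), a small metal-binding protein, rose 7.9-fold and nicotianamine synthase 3 (AK070656), whose product chelates iron and zinc, rose 7.32-fold.

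The remaining 5 of the 10 largest rises lay between 5.11-fold and 5.62-fold. A barley-like serine carboxypeptidase III (AK073508) rose 5.62-fold, an Arabidopsis-like branched-chain amino acid transaminase (AK105963) 5.49-fold and a patatin-like protein (AK106563, tobacco), of a family of lipid acyl hydrolases, 5.26-fold. SENU5 (AK067450), a cDNA first isolated from ageing tomato leaves, rose 5.11-fold and a tobacco-like ABC1 transporter (AK107688) 5.32-fold. The array values of these 5 lay between 2.14 and 2.57, and no dsRNAi channel value fell among the wild type ones.

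Across processes, the share of probes called and their direction varied widely, as the plot by description list shows. Of 7301 tested probes with a described product 12.3% rose and 17.3% fell, against 11.2% and 14.6% of all probes. Lists were found by words in the descriptions, and each cDNA counts as a member. With median centring the lists had from 0 to 7 calls each, with 0 among others in the MADS-box, bZIP, glycolysis, cell cycle and chromatin lists.

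**Figure D1:**
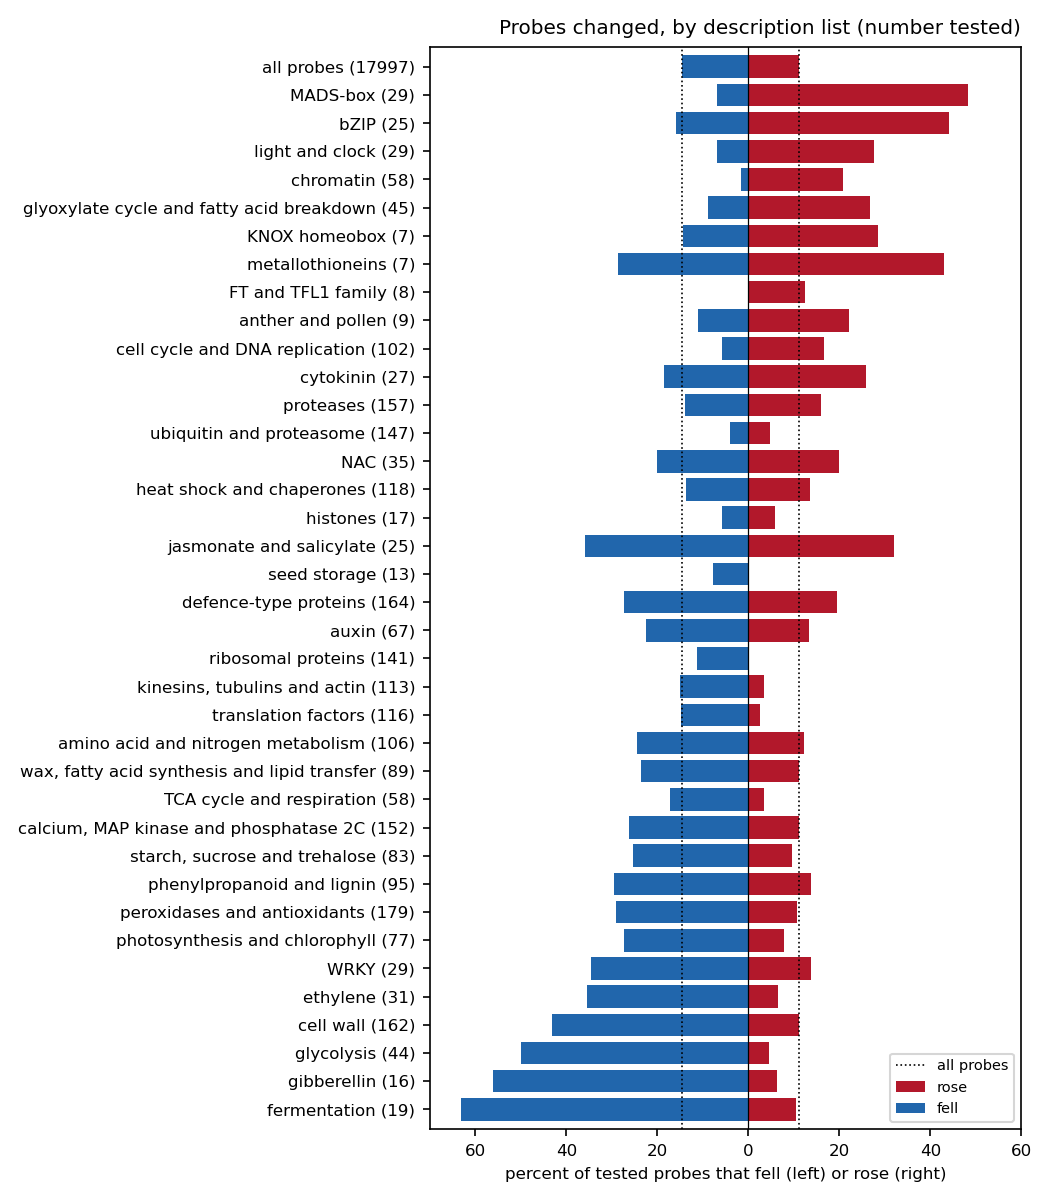
Share of tested probes in each description list that fell (blue, to the left) or rose (red, to the right) in dsRNAi panicles, with the number tested in brackets. All probes are at the top, and the lists below are ordered by the share that rose less the share that fell. Dotted lines mark the shares over all 17997 probes, 14.6% fell and 11.2% rose. MADS-box probes show the largest share of rises and fermentation probes the largest share of falls.

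MADS-box genes, which encode the transcription factors of floral organ and spikelet identity, rose more often than they fell in dsRNAi panicles. Of 29 tested probes 14 rose (48.3%, against 11.2% of all probes), 2 fell and 13 did not pass, with a median of 0.31 against 0.01 over all probes. OsMADS6 (AK069103), of the AGL6 group that acts in floral meristem and organ identity, gave 1.30 and 1.49, with log2 signals of 13.02 and 12.89 in dsRNAi panicles and 11.72 and 11.41 in wild type, a 2.62-fold rise (mean 1.39 ± 0.11, adjusted p = 0.000141). OsMADS5 (AK064184), of the SEPALLATA group that acts together with the other floral organ genes, had a mean of 1.25 ± 0.15 and rose 2.38-fold (adjusted p = 0.000784). OsMADS8 (AK072867), of the same group, gave 1.12 and 1.14 and rose 2.18-fold (adjusted p = 0.000352). OsMADS45 (AK100263), a further member, gave 1.43 and 0.93 (adjusted p = 0.00503). OsMADS1 (AK070981), which sets the identity of lemma and palea, gave 0.90 and 0.79 (adjusted p = 0.00124). A cDNA described only as MADS box-like (AK069317) gave 1.30 and 1.07 (adjusted p = 0.000394). In each of these genes both arrays were above 0.7.

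Some of the rises were in genes of the B and C classes, which specify lodicules, stamens and carpels. OsMADS2 (AK070894), of the B class, gave 0.89 and 0.70 (adjusted p = 0.00238), and OsMADS4 (AK100233), of the same class, gave 0.84 and 0.81 (adjusted p = 0.00135). A probe described by the wheat AGAMOUS homologue WAG (AK111723) gave 0.86 and 0.96 (adjusted p = 0.00103), and OsMADS3 (AK108568), the rice C-class gene of stamens, 0.59 and 0.47 (adjusted p = 0.0111). OsMADS18 (AK064704), of the APETALA1 group, gave 0.82 and 0.90, while AK061899, described as FDRMADS6, gave 0.12 and 0.08 and did not pass (adjusted p = 0.586). The 2 falls were in cDNAs described as MADS box-like without a gene symbol, AK100227 with -0.89 and -1.11 (adjusted p = 0.00112) and AK066160 with -0.66 and -0.88 (adjusted p = 0.0338). The other 3 rises had means from 0.41 to 0.94, and the other 12 probes that did not pass ranged from -0.26 to 0.31. With median centring 0 of the 29 probes passed, while the list median was 0.47. Without array 1 the list had 10 rises and 1 fall and without array 2 it had 13 and 1. OsMADS3 did not pass without array 1 (adjusted p = 0.0812). AK066160 passed neither without array 1 (adjusted p = 0.0565) nor without array 2 (0.149).

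**Figure D2:**
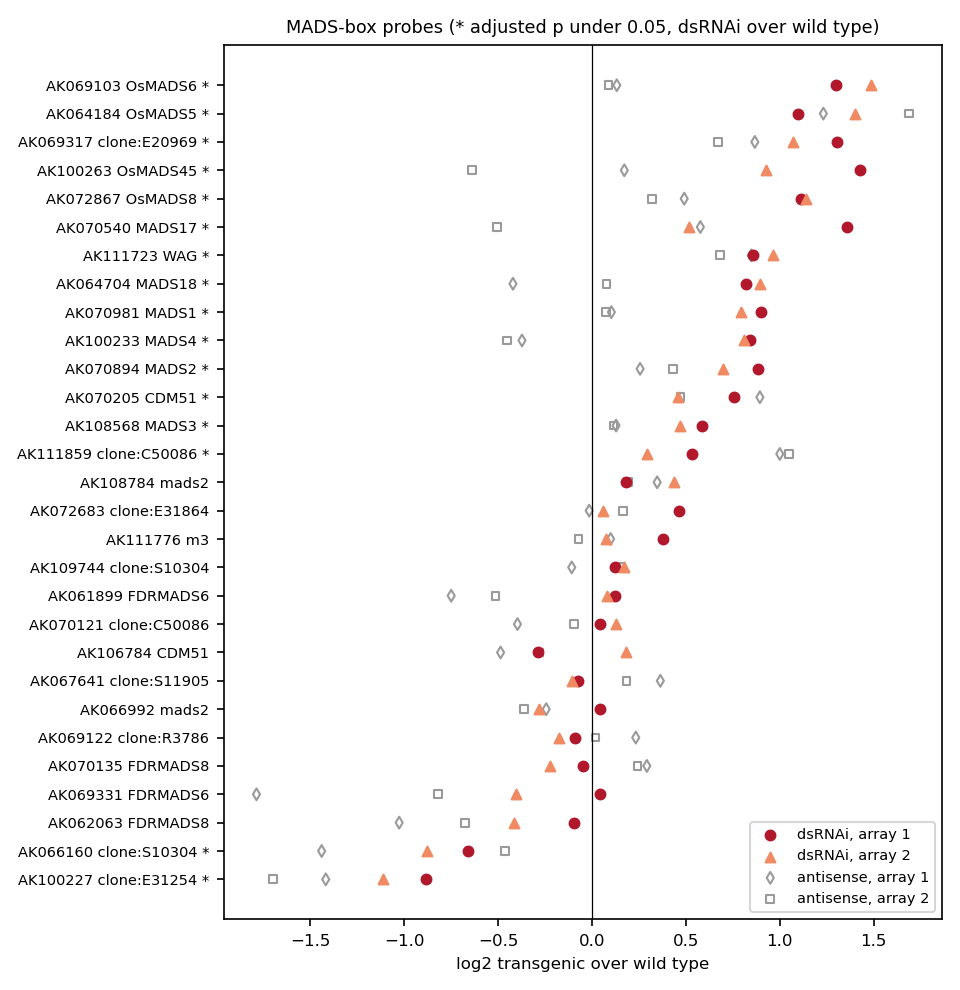
Log2 ratio of transgenic over wild type for each of the 29 tested MADS-box probes, with red circles and orange triangles for the 2 dsRNAi arrays and open grey symbols for the 2 antisense arrays. Asterisks mark an adjusted p under 0.05 for dsRNAi over wild type. The dsRNAi points lie close together for most probes, and for OsMADS6, OsMADS1 and OsMADS4 they lie to the right of both antisense points.

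The MADS-box list had 6 rises and 6 falls in antisense panicles, with a median of 0.08. The direct test of dsRNAi minus antisense passed for 8 of its 29 probes (27.6%, against 16.5% of all probes), 7 of them higher with dsRNAi. It passed for OsMADS6 (1.28 ± 0.16, adjusted p = 0.00183), OsMADS4 (1.24 ± 0.16, 0.00176) and OsMADS45 (1.41 ± 0.29, 0.0156). OsMADS4 gave -0.37 and -0.45 on the antisense arrays, below 0 on both. Its transgenic signals were 9.72 and 9.43 for dsRNAi and 8.88 and 8.78 for antisense, and its wild type signals 8.88 and 8.62 on the dsRNAi arrays and 9.25 and 9.23 on the antisense arrays. OsMADS6 had transgenic signals of 12.39 and 12.42 for antisense and wild type signals of 12.26 and 12.33 on those arrays, so that both channels of both genes stood apart. Over the list the median gap, dsRNAi minus antisense arrays, was 0.10 between the transgenic channels and -0.28 between the wild type channels. For OsMADS5, with 1.23 and 1.69 on the antisense arrays, the difference did not pass (-0.21 ± 0.21, adjusted p = 0.573).

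In the KNOX homeobox list 2 of 7 probes rose and 1 fell. HOS66 (AK060316), a class 2 member, gave 1.54 and 1.30 (mean 1.42 ± 0.16, adjusted p = 0.000649), and HOS3 (AK111877) gave 0.68 and 0.84 (adjusted p = 0.00314). OSH43 (AK107296) gave -0.60 and -0.45 (adjusted p = 0.0119, and 0.0937 without array 1). HOS66 was lower with dsRNAi than with antisense, where it gave 4.07 and 4.68 (difference -2.96 ± 0.23, adjusted p = 0.000309). Its mean log2 signal, dsRNAi minus antisense arrays, differed by -0.29 in the transgenic channels and by 2.67 in the wild type channels. Of 8 probes of the family of FT, the mobile flowering signal, and its opponent TFL1, 1 rose, a probe of the rice florigen gene Hd3a (AK100491, 0.42 and 0.57, adjusted p = 0.0192, and 0.141 without array 2). Another Hd3a probe (AK072979) gave -0.07 and -0.24 and did not pass, and the rest lay within -0.16 and 0.05. Of the 8 probes 4 were well above background in both channels on both dsRNAi arrays. The dimmer ones, a further Hd3a probe among them, do not show that their genes were unchanged.

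The NAC family, plant-specific factors of organ boundaries, senescence and stress, was split evenly, with 7 rises and 7 falls of 35. Of 2 cDNAs described by the wheat protein GRAB2, AK073876 gave 2.04 and 2.14 and rose 4.25-fold, and AK105645 gave 1.97 and 2.10 and rose 4.09-fold. OsNAC4 (AK073848), known in rice for a part in hypersensitive cell death, fell 4.72-fold with -2.23 and -2.25, and OsNAC3 (AK073667) fell 3.32-fold. WRKY factors, many of them regulators of defence, had 4 rises and 10 falls of 29 (34.5% fell, against 14.6% of all probes). The largest falls were in 2 cDNAs described as ABF2 of wild oat, a WRKY protein, AK106282 with -4.61 and -3.93 and AK058773 with -3.09 and -2.89, and in a cDNA like Arabidopsis WRKY57 (AK069091, -2.30 and -2.41, adjusted p = 3.03e-05). Without array 2 the WRKY list had 3 rises and 6 falls.

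Among bZIP factors 11 of 25 rose (44.0%, against 11.2% of all probes) and 4 fell, with a median of 0.38. The rises were led by a cDNA like Arabidopsis AtbZIP65 (AK106988, 0.77 and 1.19, adjusted p = 0.0055). No bZIP probe changed 2-fold, and the list had 7 rises and 4 falls without array 1 and 8 and 1 without array 2. In the list of light and clock genes 8 of 29 rose (27.6%, against 11.2% of all probes) and 2 fell, with a median of 0.23. Rises were fewer without array 1 and still outnumbered falls. A cDNA described by LHY of bean (AK111726), a core factor of the circadian clock in Arabidopsis, gave 1.09 and 0.99 with dsRNAi and -1.42 and -1.25 with antisense (difference 2.37 ± 0.16, adjusted p = 0.000194). Its mean log2 signal, again dsRNAi minus antisense arrays, differed by 0.37 in the transgenic channels and by -2.00 in the wild type channels, which were well above background on 1 of the 2 dsRNAi arrays. Of 2 cDNAs described by the same Arabidopsis phytochrome-associated protein, AK068600 rose (0.80 ± 0.11, adjusted p = 0.0018) and AK100314 fell (-1.87 ± 0.15, adjusted p = 0.000147).

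Gibberellin and ethylene genes fell more often than they rose. Of 16 gibberellin probes 9 fell (56.2%, against 14.6% of all probes) and 1 rose, with a median of -0.48. A gibberellin 3-beta-hydroxylase described from lettuce (AK072410), which makes the active hormone, gave -2.22 and -2.27 and fell 4.74-fold (adjusted p = 3.36e-05). CIGR1 (AK069266), a rice gibberellin-responsive regulator, fell 2.71-fold with -1.27 and -1.60. Of 31 ethylene probes 11 fell (35.5%, against 14.6% of all probes) and 2 rose. Fewer fell without array 2. Besides AK102472, an ACC oxidase of rice (AK058296) gave -2.99 and -3.20 (8.56-fold lower, adjusted p = 1.01e-05), and OsEIL2 (AK060806), of the ETHYLENE INSENSITIVE3 family of ethylene signalling, gave -1.66 and -1.84 (3.37-fold lower). The 2 rises were in wheat-like ACC synthases, the enzymes one step earlier, with 0.77 ± 0.13 for AK065212 (adjusted p = 0.00413) and 0.68 ± 0.12 for AK064250 (adjusted p = 0.00525, and 0.0501 without array 1).

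Jasmonate and salicylate genes moved strongly in both directions, with 8 rises (32.0%) and 9 falls (36.0%) of 25 probes. Over all probes the shares were 11.2% and 14.6%. An allene oxide synthase described from flax (AK107161), the first committed enzyme of jasmonate synthesis, rose 4.26-fold with 2.34 and 1.85 (adjusted p = 6.24e-05). A further enzyme of that route, a 12-oxophytodienoic acid reductase (AK061212), rose 1.96-fold with 0.87 and 1.07. A lipoxygenase like barley LoxB (AK071121) fell 3.33-fold with -1.62 and -1.85. A second cDNA described by the salicylic acid methyltransferase, AK062130, gave 1.29 and 1.16, opposite to the large fall of AK070415.

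Auxin genes had 9 rises (13.4%, against 11.2% of all probes) and 15 falls (22.4%, against 14.6%) of 67. Falls outnumbered rises without array 1 but not without array 2. Among 27 cytokinin probes 7 rose (25.9%, against 11.2% of all probes) and 5 fell (18.5%, against 14.6%). Rises no longer outnumbered falls without array 1. An Arabidopsis-like cytokinin receptor AHK3 (AK067580) gave 1.06 and 1.38 (adjusted p = 0.00106), and a maize-like response regulator ZmRR9 (AK099581) gave 1.30 and 0.92 (adjusted p = 0.0012). A cDNA described by a cabbage cytokinin-binding protein (AK068276) fell 3.18-fold with -1.80 and -1.53.

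Enzymes of fermentation and glycolysis fell more often than they rose in dsRNAi panicles. Of 19 fermentation probes 12 fell (63.2%, against 14.6% of all probes) and 2 rose, with a median of -0.57. Besides pyruvate decarboxylase 1, a second pyruvate decarboxylase (AK100501) had log2 signals of 6.70 and 7.47 in dsRNAi panicles and 10.09 and 10.34 in wild type and fell 8.77-fold (mean -3.13 ± 0.15, adjusted p = 1.72e-05). Alcohol dehydrogenase 2 (AK102799), which makes ethanol from the acetaldehyde, stood at 6.14 and 6.84 in dsRNAi panicles and at 7.77 and 8.58 in wild type and fell 3.21-fold. A rise of 1.85-fold was in a cDNA described by maize tasselseed 2 (AK100767), a short-chain dehydrogenase known for sex determination of maize florets and not for fermentation. In glycolysis 22 of 44 probes fell, 20 did not pass and 2 rose, with a median of -0.45, and without array 2 there were 14 falls. Hexokinase II (AK059853), which phosphorylates glucose, gave -1.30 and -1.39 and fell 2.54-fold. A pyrophosphate-dependent phosphofructokinase (AK099939, described from grapefruit) gave -1.44 and -1.11 and fell 2.42-fold.

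Of 58 probes of the tricarboxylic acid cycle and respiration 10 fell (17.2%, against 14.6% of all probes) and 2 rose (20.7% called, against 25.8% of all probes), and 4 fell and 4 rose without array 1. The share of falls was near the 17.3% among probes with a described product. Of the 58 probes 1 changed 2-fold, a cytoplasmic malate dehydrogenase (AK059248) with -2.32 and -2.18 (4.75-fold lower, adjusted p = 6.24e-05). The alternative oxidase AOX1b (AK107376), a bypass of the mitochondrial electron chain, was not well above background in wild type on either array. Where that held, the fold is a bound, the dsRNAi mean over the higher of the wild type signal and the lowest signal well above background, and AOX1b was at least 1.94-fold higher in dsRNAi panicles (adjusted p = 0.00262). In the glyoxylate cycle and fatty acid breakdown rises outnumbered falls, with 12 of 45 probes rising (26.7%, against 11.2% of all probes) and 4 falling, and 9 rising and 1 falling without array 2. A wheat-like triacylglycerol lipase (AK072772), which frees fatty acids from storage fat, rose 2.54-fold with 1.41 and 1.28. A 3-ketoacyl-CoA thiolase (AK069768), of the last step of beta-oxidation, gave 1.54 and 1.77 (adjusted p = 0.0153, and 0.0557 without array 2).

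**Figure D3:**
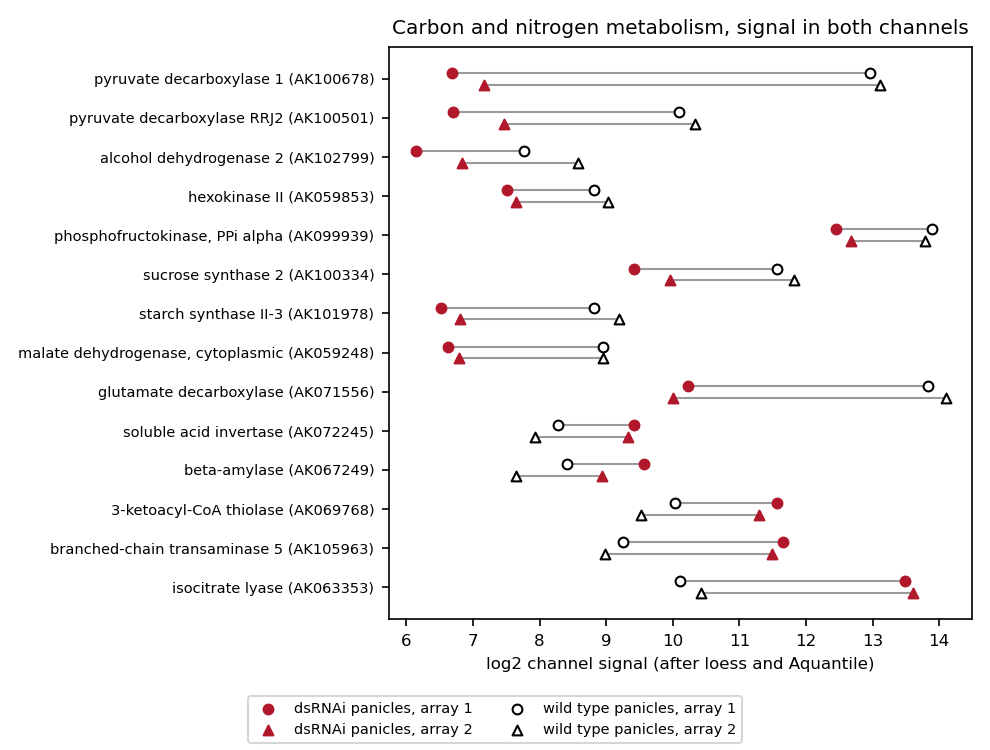
Log2 channel signal of dsRNAi panicles (filled red) and wild type panicles (open) on array 1 (circles) and array 2 (triangles) for enzymes of carbon and nitrogen metabolism, with a line joining both channels of an array. In the upper 9 genes both dsRNAi values lie left of both wild type values, and in the lower 5 both lie to the right.

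Starch, sucrose and trehalose genes fell in 21 of 83 probes (25.3%, against 14.6% of all probes) and rose in 8 (9.64%, against 11.2%). Both were fewer without array 2. Starch synthase II-3 (AK101978), which lengthens starch chains, gave -2.30 and -2.39 (5.07-fold lower, adjusted p = 1.71e-05). Sucrose synthase 2 (AK100334, described from bamboo), which cleaves sucrose, gave -2.15 and -1.86 (4.02-fold lower). Sugar-releasing enzymes of other kinds rose, a soluble acid invertase described from ryegrass (AK072245) 2.41-fold with 1.14 and 1.39 and an Arabidopsis-like beta-amylase (AK067249) 2.35-fold with 1.17 and 1.29.

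In amino acid and nitrogen metabolism 26 of 106 probes fell (24.5%, against 14.6% of all probes) and 13 rose (12.3%, against 11.2%). Falls outnumbered rises by less without array 2. A branched-chain aminotransferase-like cDNA (AK067076) gave -2.11 and -2.63 (5.17-fold lower), opposite to the transaminase AK105963. Cysteine synthase rcs2 (AK070508) fell 3.42-fold with -1.83 and -1.72, and an alanine:glyoxylate aminotransferase-like cDNA (AK060423) rose 3.86-fold with 2.00 and 1.90 (adjusted p = 3.36e-05). Proteases had 25 rises and 22 falls of 157, and 22 and 13 without array 2. In all 29.9% of the protease probes were called, against 25.8% of all probes and 29.6% of those with a described product. Cysteine protease cDNAs rose most, AK072235 7.49-fold with 2.66 and 3.15 and AK071495 6.45-fold with 2.52 and 2.85, each with the dsRNAi spot saturated on 1 array. The falls were led by 3 cDNAs of the aspartic protease CND41, which in tobacco binds chloroplast DNA, with means of -2.66, -2.31 and -2.03 (AK068441, AK105666 and AK066409). Ubiquitin and proteasome genes changed in 8.84% of 147 probes, 7 higher and 6 lower, against 25.8% of all probes, and without array 1 there were 4 rises and 10 falls. A cDNA described as a ubiquitin-activating enzyme of Arabidopsis (AK067422), of the first step of ubiquitin attachment, rose 2.28-fold. It was the 1 rise of at least 2-fold in this list, against 3 falls of at least 2-fold.

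The cell wall list held the largest number of falls. Of 162 tested probes 70 fell (43.2%, against 14.6% of all probes) and 18 rose, 23 of the falls at least 2-fold, with a median of -0.28. A xyloglucan endotransglycosylase (AK070734), which cuts and rejoins the xyloglucan of growing walls, gave -3.47 and -3.27 (10.3-fold lower, adjusted p = 1.01e-05). The proline-rich wall protein OsPRP1 (AK062795) gave -3.26 and -2.89 and fell 8.44-fold, with its dsRNAi signal well above background on 1 of the 2 arrays. A pectin esterase described from peach (AK058651), which alters wall pectin, gave -2.76 and -2.77 and fell 6.81-fold. The one rise over 2-fold was in a beta-galactosidase described from asparagus (AK102756), with 1.09 and 1.13. The cell wall list differed from antisense at 52 probes (32.1%, against 16.5% of all probes), 42 of them lower with dsRNAi. Its median gap, dsRNAi minus antisense arrays, was -0.075 between the transgenic channels and 0.12 between the wild type channels. OsPRP1 was not well above background in either channel of the antisense arrays, so its difference between constructs is not given.

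Phenylpropanoid and lignin genes, which make flavonoids and the lignin of secondary walls, fell in 28 (29.5%) and rose in 13 (13.7%) of 95 probes. Over all probes the shares were 14.6% and 11.2%. An isoflavone reductase-like cDNA (AK109339) fell 26.8-fold, with -5.17 and -4.32, and its dsRNAi signal was well above background on 1 of the 2 arrays. Cinnamyl alcohol dehydrogenase CAD1 (AK067085, described from ryegrass), which makes lignin alcohols, gave -2.24 and -2.32 (4.86-fold lower, adjusted p = 1.88e-05). A laccase described from ryegrass (AK103094), of the family that couples those alcohols, was not well above background in wild type on either array and was at least 5.49-fold higher in dsRNAi panicles (adjusted p = 3.3e-05). Of the 42 probes of this list that differed between constructs (44.2%, against 16.5% of all probes) 31 were lower with dsRNAi. The median gap over the list, dsRNAi minus antisense arrays, was -0.05 between the transgenic channels and 0.29 between the wild type channels.

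Genes of wax, fatty acid synthesis and lipid transfer fell more often than they rose, with 21 falls and 10 rises of 89 probes. The falls made up 23.6%, against 14.6% of all probes, and the rises 11.2%, as over all probes. A stearoyl desaturase described from Thunbergia (AK101524) fell 7.76-fold with -3.01 and -2.91, and the fatty acid elongase AK067907 13.8-fold with -3.61 and -3.96. Lipid transfer protein b1 (AK058921) rose 3.17-fold with 1.75 and 1.58. Among kinesins, tubulins and actin 17 of 113 fell and 4 rose, the falls being near their share of 14.6% over all probes. An actin cDNA (AK101613, described from barley) fell 2.31-fold. A formin (AK061290, described from Arabidopsis), which nucleates actin filaments, fell 2.59-fold.

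Genes of cell division and chromatin were more often higher, with small changes. Of 102 probes for the cell cycle and DNA replication 17 rose (16.7%, against 11.2% of all probes) and 6 fell, with a median of 0.20. In all 22.5% of this list were called, against 25.8% of all probes. Without array 1 there were 9 rises and 6 falls, and without array 2 there were 10 and 1. Replication protein A1 (AK070975), which coats single-stranded DNA, gave 1.09 and 1.15 and rose 2.17-fold. A maize-like D-type cyclin cycD2 (AK063671), of the entry into the cell cycle, gave 0.88 and 1.16 and rose 2.03-fold, while a cycD1-like cDNA (AK070370) gave -0.75 and -0.74. Chromatin regulators rose in 12 of 58 probes (20.7%, against 11.2% of all probes) and fell in 1, with a median of 0.21. Of these 58 probes 22.4% were called, against 25.8% of all probes. The histone deacetylase HD1 (AK064000) gave 0.86 and 0.59 and a trithorax-like cDNA (AK112101), of histone methylation, 0.74 and 0.81, while the plant histone deacetylase HD2 (AK063535) gave -1.01 and -0.61. Of 17 histone probes 1 rose and 1 fell, and neither passed without array 1.

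The machinery of translation changed mostly in small steps, with 1 fall of at least 2-fold, in the list of translation factors. Of 141 ribosomal protein probes 16 fell (11.3%, against 14.6% of all probes), none as far as 2-fold, and 0 rose in limma, with 2 higher and 28 lower at an unadjusted p under 0.05. Their median was -0.13 but 0.05 with median centring, and without array 1 there were 3 rises and 4 falls. Ribosomal protein S13 (AK059505, described from maize) gave -0.91 and -0.91 (adjusted p = 0.000817). Translation factors fell in 17 (14.7%, the falls being near their share over all probes) and rose in 3 of 116 probes, with 12 falls without array 1 and 9 without array 2, and their median of -0.13 was 0.07 with median centring. The elongation factor EF-1 alpha (AK072648) gave -0.99 and -0.88 (adjusted p = 0.000882).

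Antioxidant genes fell more often than they rose, with 52 falls (29.1%) and 19 rises (10.6%) of 179 probes. Over all probes the shares were 14.6% and 11.2%. Peroxidase 1 (AK105708, described from skullcap) gave -3.24 and -3.55 (10.5-fold lower, adjusted p = 1.2e-05), and a glutathione S-transferase like maize GST 13 (AK059955) -3.40 and -3.02 (9.24-fold lower). Another enzyme of that family, OsGSTU12 (AK063773), gave 1.85 and 2.06 and rose 3.88-fold. A catalase (AK099923), which breaks down hydrogen peroxide, was at least 2.85-fold higher in dsRNAi panicles, its wild type signal not well above background on either array (adjusted p = 9.44e-05).

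Defence-type proteins changed in 47.0% of 164 probes, against 25.8% of all probes, with 45 falls and 32 rises. Besides PBZ1, a lectin-like protein (AK062520) rose 2.97-fold, with its dsRNAi spot saturated on 1 array. A beta-1,3-glucanase (AK073663, Arabidopsis-like), of the enzymes that attack fungal walls, gave -3.03 and -2.89 and fell 7.77-fold. A Bowman-Birk trypsin inhibitor (AK070467) gave -3.16 and -2.60 and fell 7.36-fold, with its dsRNAi signal well above background on 1 of the 2 arrays. A thaumatin-like protein (AK110572), of an antifungal family, gave -2.56 and -2.14 and fell 5.11-fold. Heat shock proteins and chaperones rose in 16 and fell in 16 of 118 probes, and without array 1, as without array 2, there were 6 rises and 15 falls. In all 27.1% of this list were called, near the 25.8% of all probes. An 18 kDa heat shock protein described from maize (AK071240) fell 4.65-fold with -2.00 and -2.44, and a soybean-like heat shock transcription factor (AK063952) rose 2.05-fold.

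Of 7 metallothionein probes 3 rose and 2 fell, with 3 rises alone without array 1. The rises gave 3.00 and 2.97 for OsMT-1 (AK103162), 2.19 and 2.10 for AK058313, whose dsRNAi spot was saturated on 1 array, and 1.54 and 2.21 for AK062653. A second OsMT-1 cDNA (AK103445) gave -0.76 and -0.42, opposite to the first (adjusted p = 0.0116, and 0.115 without array 1). The fall of OsMT-2 (AK069318, -0.61 and -0.57, adjusted p = 0.0188) did not pass without array 1 or 2 (0.0791 and 0.069). In calcium, MAP kinase and phosphatase 2C signalling 40 of 152 probes fell (26.3%, against 14.6% of all probes), 18 of them at least 2-fold. In all 17 rose (11.2%, as over all probes), and fewer without array 2. A calcium ATPase described from Medicago (AK100415), which pumps calcium out of the cytosol, gave -3.05 and -2.54 and fell 6.94-fold. The MAP kinase wjumk1 (AK100389) gave -2.74 and -2.23 and fell 5.61-fold. A CBL-interacting kinase (AK111510) rose 1.95-fold.

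Markers of other tissues and stages were read beside these results. Photosynthesis genes, which mark green tissue, fell in 21 (27.3%, against 14.6% of all probes) and rose in 6 of 77 probes. Both were fewer without array 1. A light-harvesting protein of photosystem II (AK061619) gave -1.22 and -2.13 (adjusted p = 0.0048), while a carbonic anhydrase of the chloroplast (AK060890) gave 1.13 and 1.30. Of 17 anther and pollen probes 9 were bright enough to test, and 2 rose and 1 fell (0 and 1 without array 2), with means from -0.70 to 0.72. Of 23 seed storage probes 13 were tested and 1 fell, which did not pass without array 1 or 2, with means from -0.40 to 0.19, so neither list reached a 2-fold change. The part of such tissues in the results above was not tested.

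The dsRNAi panicles were last set against the antisense panicles. With the antisense construct 6693 probes were called (37.2%). Each construct had its own wild type hybridizations. Of the probes called with both, 1387 were higher and 1549 lower in each, while 74 rose with dsRNAi and fell with antisense and 177 did the reverse. The test of dsRNAi minus antisense passed for 2962 probes (16.5%), 1140 higher and 1822 lower with dsRNAi. In 2650 of these (89.5%, against 70.0% of all tested probes) the wild type channels of both sets of arrays stood farther apart than the transgenic channels. The median absolute gap at the 2962 probes was 0.22 between the transgenic channels and 0.93 between the wild type channels. Scan day and the version of the image software go with the construct, so they and the construct cannot be told apart in this comparison.

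**Figure D4:**
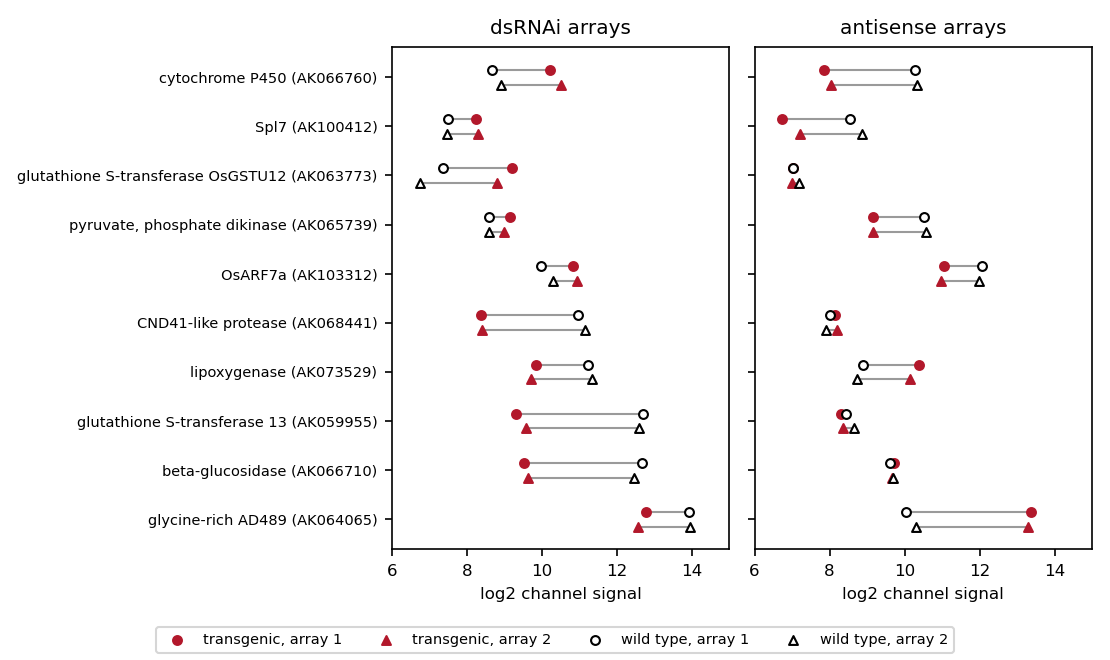
Log2 channel signal on the dsRNAi arrays (left panel) and the antisense arrays (right panel) for the 5 largest differences in each direction among genes with a described product that were well above background and not saturated in both channels on all 4 arrays, and were called oppositely in both constructs, or called with dsRNAi and within 0.25 of 0 with antisense. Filled red symbols are transgenic panicles, open symbols wild type panicles, circles array 1 and triangles array 2. For 7 of the 10 genes the wild type symbols shift more between the panels than the transgenic ones.

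Among genes higher with dsRNAi, a cytochrome P450 cDNA described from ryegrass (AK066760) gave 1.55 and 1.59 with dsRNAi and -2.43 and -2.29 with antisense, a difference of 3.92 ± 0.16 (adjusted p = 5.94e-05). Its transgenic signals were 10.21 and 10.50 for dsRNAi and 7.85 and 8.03 for antisense, farther apart than its wild type signals of 8.66 and 8.91 on the dsRNAi arrays and 10.28 and 10.32 on the antisense arrays. The heat stress factor Spl7 (AK100412), whose mutants form lesions on rice leaves, gave 0.76 and 0.84 and -1.81 and -1.66, with transgenic signals of 8.25 and 8.30 for dsRNAi and 6.73 and 7.20 for antisense and wild type signals of 7.49 and 7.46 on the dsRNAi arrays and 8.53 and 8.86 on the antisense arrays, so that both channels stood apart by a similar amount. OsGSTU12 differed by 2.05, and its wild type signals were alike on both sets (7.36 and 6.75 on dsRNAi arrays, 7.04 and 7.18 on antisense arrays). PBZ1 was not chosen by the same rule, since it rose with both constructs, but its transgenic channels also differed. AK099157 stood at 11.69 and 11.47 in dsRNAi panicles and 7.62 and 7.52 in antisense panicles, with wild type at 8.21 and 8.14 on the dsRNAi arrays and 6.70 and 6.47 on the antisense arrays (difference of the ratios 2.42 ± 0.16, adjusted p = 0.000174).

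For the auxin response factor OsARF7a (AK103312) and a cytosolic pyruvate, phosphate dikinase (AK065739) the transgenic signals were close. AK103312 stood at 10.84 and 10.94 in dsRNAi panicles and 11.06 and 10.96 in antisense panicles, with wild type at 9.98 and 10.30 on the dsRNAi arrays and 12.05 and 11.99 on the antisense arrays. AK065739 stood at 9.16 and 8.99 in dsRNAi panicles and 9.14 and 9.15 in antisense panicles, with wild type at 8.60 and 8.59 on the dsRNAi arrays and 10.51 and 10.58 on the antisense arrays. The dsRNAi call of AK065739 did not pass without array 1 (adjusted p = 0.137).

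Genes lower with dsRNAi differed mainly in their wild type channels. A glycine-rich protein (AK064065) gave -1.15 and -1.40 with dsRNAi and 3.35 and 3.01 with antisense, a difference of -4.45 ± 0.19 (adjusted p = 5.94e-05). Its transgenic signals were 12.78 and 12.55 for dsRNAi and 13.38 and 13.31 for antisense, and its wild type signals 13.94 and 13.95 on the dsRNAi arrays and 10.03 and 10.29 on the antisense arrays. The same held for beta-glucosidase isozyme 2 (AK066710), with transgenic signals of 9.53 and 9.62 for dsRNAi and 9.72 and 9.65 for antisense. Its wild type signals were 12.66 and 12.46 on the dsRNAi arrays and 9.60 and 9.69 on the antisense arrays. Lipoxygenase L-2 (AK073529), of oxylipin synthesis, was lower than wild type with dsRNAi (-1.41 and -1.62) and higher with antisense (1.50 and 1.42). CND41-like AK068441 and the glutathione S-transferase AK059955 fell with dsRNAi and gave 0.20 and -0.22 with antisense.

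Isocitrate lyase, one of the largest rises in dsRNAi panicles, was still lower than with antisense (difference -3.93 ± 0.32, adjusted p = 0.000346). Its signals were 13.48 and 13.61 in dsRNAi panicles and 13.75 and 13.92 in antisense panicles, and in wild type 10.11 and 10.43 on the dsRNAi arrays and 7.07 and 6.19 on the antisense arrays. The jasmonate-induced protein AK066682, one of the largest falls, had transgenic signals of 6.74 and 7.25 for dsRNAi and 6.17 and 6.51 for antisense, which was not well above background on either antisense array. Its wild type signals were 11.34 and 11.33 on the dsRNAi arrays and 6.50 and 6.98 on the antisense arrays. For both genes the wild type values of the 2 sets did not overlap, and for isocitrate lyase, with wild type well above background on 1 of the 2 antisense arrays, they lay farther apart than the transgenic values.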

How the data were processed

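The dsRNAi comparison rests on 2 two-colour arrays and shares its estimate of the spread with 2 antisense arrays. Spot intensities of both channels were extracted, per the file headers, with Agilent Feature Extraction, version 9.1.3.1 for dsRNAi and 8.1.1.1 for antisense arrays. The deposited log10 ratios of red over green had, per the file headers, already been corrected for background and dye by the same software. The series table holds log2 ratios as the authors deposited them, Cy5 over Cy3, whose processing and centring are not given in the sources used here. Turned to transgenic over wild type, its columns had medians of 0.0842 and 0.0521 for dsRNAi and -0.0046 and -0.0366 for antisense.

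Intensities were corrected with normexp (offset 50) and loess within each array in limma 3.58.1 (R 4.3.3), control and outlier spots were left out, and ratios were turned by the channel labels. On the swapped arrays the labelling text and the label fields give opposite dyes, and the label fields were followed. A probe was kept if some channel stood well above background on 2 or more arrays, which left 18096 probes, 17997 of them with enough values for a test. One coefficient per construct was fitted with 2 residual degrees of freedom, with eBayes and Benjamini-Hochberg adjustment, after a test on simulated data. Channel signals are log2 after loess and Aquantile scaling. The arrays were numbered in accession order.

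Named genes were the 10 largest rises and falls, up to 3 in each direction per list, the 5 largest differences in each direction between constructs, and floral family members. The genes and lists were chosen with earlier results of these data known. Alternatives changed the offset, normalization, filter, fit and arrays used. Some genes that the rule named are not reported here. No sequences were analysed here.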

Additional observations from a re-analysis of the deposited data

Results flagged for a closer look

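The effects of both constructs on the same contrast, transgenic over wild type, differed by limma's test at 2962 probes. The values below are dsRNAi minus antisense, in log2, for the genes named above that passed it. For 73 of these 83 genes the wild type channels of both sets of arrays stood farther apart than the transgenic channels, and scan day and software version go with the construct, so that these cannot be told apart from it. Genes with no antisense array well above background in either channel are not given. In AK061212, AK062130, AK066682, AK099923 and AK107688 a channel was not well above background on either array of a construct, and the transgenic channel of AK058313 and of the lectin-like protein was saturated on 1 array of each construct. The wild type channel of OsGAD2 and of pyruvate decarboxylase 1 was saturated on 1 antisense array. The size of these differences is therefore uncertain.

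Among genes that rose with dsRNAi and had a lower value than with antisense, the cysteine proteases had -5.60 for AK071495 and -5.39 for AK072235, each saturated in the transgenic channel on 1 array of both constructs. Isocitrate lyase stood at -3.93, OsMT-1 (AK103162) at -3.67, the other metallothioneins AK058313 and AK062653 at -2.45 and -2.40, and nicotianamine synthase 3 at -1.02. Of the same sign were -3.05 for the transaminase AK105963, -2.18 for AK060423, -2.19 for serine carboxypeptidase III and -1.42 for the patatin-like protein. The ABC1 transporter had -2.01, SENU5 -1.77, the lectin-like protein -2.65 and the lipid transfer protein -1.21. In carbohydrate genes the difference was -3.20 for beta-galactosidase, -1.35 for soluble acid invertase and -0.80 for beta-amylase.

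Hormone and regulatory genes that rose with dsRNAi and were lower than with antisense included allene oxide synthase (-2.72), 12-oxophytodienoic acid reductase (-1.41), the methyltransferase AK062130 (-1.73) and the response regulator AK099581 (-0.73). The GRAB2-like factors AK073876 and AK105645 had -2.32 and -2.09, and the homeobox genes HOS66 and HOS3 -2.96 and -1.37. The bZIP factor AK106988 had -1.34, the phytochrome-associated AK068600 -0.93, the CBL-interacting kinase AK111510 -2.03 and the cyclin AK063671 -1.56.

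A further set fell with dsRNAi and was lower than with antisense. The glycine-rich protein AK064065 had -4.45, the isoflavone reductase-like AK109339 -4.43, the jasmonate-induced protein AK066682 -3.94 and arginine decarboxylase -3.39. Beta-glucosidase AK066710 differed by -3.03, cinnamyl alcohol dehydrogenase by -2.04 and lipoxygenase L-2 by -2.98. The CND41-like proteases AK068441, AK105666 and AK066409 gave -2.86, -2.71 and -1.86. Glutathione S-transferase AK059955 gave -2.99, peroxidase AK105708 -2.61, the thaumatin-like protein -2.23 and the trypsin inhibitor -1.70. Further differences of this sign were -2.08 for malate dehydrogenase, -1.99 for the cytokinin-binding protein, -1.63 for the light-harvesting protein and -1.53 and -1.19 for the metallothioneins AK103445 and AK069318. Hexokinase II had -1.14, sucrose synthase 2 -0.91, the histone deacetylase HD2 -0.93, ribosomal protein S13 -0.85 and OSH43 -0.69.

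Genes with a higher value with dsRNAi than with antisense included MADS-box genes, with 1.41 for OsMADS45, 1.28 for OsMADS6, 1.24 for OsMADS4, 1.03 for OsMADS18, 0.76 for OsMADS1, 0.73 for AK061899 and 0.72 for OsMADS8. The cytochrome P450 AK066760 had 3.92, Spl7 2.53, the LHY-like AK111726 2.37, and the PBZ1 cDNAs AK099157 and AK071613 2.42 and 1.70. OsGSTU12 had 2.05, catalase AK099923 2.03, the dikinase AK065739 1.88 and OsARF7a 1.77.

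Others had a higher value with dsRNAi and fell less than with antisense. In fermentation and glycolysis the differences were 2.11 for pyruvate decarboxylase 1, 2.02 for AK100501, 2.23 for alcohol dehydrogenase 2 and 1.50 for the phosphofructokinase. OsGAD2 had 1.61, the I-box binding factor 2.30, OsNAC4 2.01 and OsNAC3 1.45. The lipoxygenase AK071121 had 1.18, the ACC oxidase AK102472 1.14, the fatty acid elongase 0.95, OsEIL2 0.90 and the calcium ATPase 0.88.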

How the results depend on the processing

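With each array centred on its median in place of loess, 186 probes changed between dsRNAi panicles and wild type, against 4639, and 32 differed between constructs, against 2962, and the cause was not tested. With the dsRNAi arrays averaged before the fit, which leaves fewer arrays, 2813 changed. Without dsRNAi array 1 or 2 the changed probes numbered 3541 and 3118, and the differing ones 2549 and 2736. Without an antisense array 5008 changed, and 2501 or 2546 differed. With the dsRNAi arrays alone the difference has no value. All other settings gave 4045 to 5077 changed and 2055 to 3322 differing probes. Of 127 called genes named here, 76 lost their call with median centring and 9 with at least 1 other setting, 7 of them without dsRNAi array 1 and 4 without array 2, and no named call changed sign.

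The balance of rises and falls turned in a few lists. Amino acid metabolism had 3 calls with median centring, 2 of them rises, and seed storage 1 rise with the deposited log ratio. Ubiquitin genes had 17 calls, 8 rises and 9 falls, with the dsRNAi arrays alone or without either antisense array, 14 without dsRNAi array 1 and 8 with the arrays averaged. The cytokinin list had 9 calls without dsRNAi array 1, and the anther list 1 without array 2. Across the settings that leave out 1 array the calls ranged from 12 to 17 for ubiquitin, from 9 to 13 for cytokinin and from 1 to 3 for anther genes.

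Only 2 arrays per construct, of opposite dye, limit the precision, and leaving out 1 leaves a single dye orientation and no spread within that construct. Between constructs no paired analysis was possible because their arrays share only numbers given in accession order. Each log ratio already sets dsRNAi against wild type RNA of the same array. Dim probes have only a bound.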
